A study of Mus musculus with 4 samples.

Results

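The genes described here encode 3 cytokines of the interleukin-6 (IL-6) family and 5 receptor chains that pass their signal through gp130, the protein of Il6st. They were taken by symbol from the table of read counts, which held all 8 (Il6, Lif, Osm, Il6st, Il6ra, Lifr, Osmr and Il11ra1) among 21878 genes. The RNA came from bone-marrow-derived macrophages of C57BL/6 mice, 8 weeks old per the labels, which shared a well with MC38 cells, a mouse colon cancer line, across a porous insert. There were 2 libraries of wildtype macrophages (WT) and 2 of macrophages from mice with a macrophage-specific knockdown of Act1 (anti-Act1), and both groups were cocultured. The labels give 48 h of coculture and the text of the study a shorter time. For the pathway analysis, the methods of the study name Apc-Min/+ mice without and with the knockdown. Its figure legend and the labels name wildtype and anti-Act1, which are used here. The promoter that drives the knockdown and the number of animals behind each library are not given in the sources used here. The comparison asked which of these ligand and receptor transcripts differed between anti-Act1 and WT macrophages.

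The libraries held 55435063 to 75062945 counts each, and 3 counts, the upper limit for a gene at 0, equalled 0.0395 to 0.0549 CPM (counts scaled to library size). The study reports, from a separate experiment, that bone-marrow-derived macrophages of anti-Act1 mice had less Act1. In the counts used here, for which use of strand is not given, Traf3ip2, which encodes Act1, was no lower where the label is anti-Act1. Its level was 6.98 and 7.54 CPM for WT and 9.64 and 7.84 CPM for anti-Act1, with a log2 fold change of 0.27 (edgeR quasi-likelihood, adjusted p = 0.117), so that each direction below is one between labels. The 4 Y-chromosome genes checked summed to 228 and 246 CPM in the WT libraries and to at most 0.0162 CPM in the others, so the sex of the animals cannot be told apart from the genotype. All 8 genes described here are autosomal. The 10 macrophage markers were all tested, and their summed level was 25100 to 26080 CPM in WT and 25900 to 26730 CPM in anti-Act1. Most of that sum was Lyz2, which averaged 16310 CPM in WT and 17440 CPM in anti-Act1. Of the 10, 2 had a log2 fold change above 0 and 8 below 0, with a median of -0.08.

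IL-6 family cytokines signal through receptor complexes that hold gp130, which many cell types make. IL-6 uses the IL-6 receptor (Il6ra), leukemia inhibitory factor (Lif) uses the Lif receptor (Lifr), and oncostatin M (Osm) uses the oncostatin M receptor (Osmr) in the mouse. Janus kinases bound to gp130 then phosphorylate STAT3, which enters the nucleus and induces, among others, the inhibitor Socs3. Macrophages are known as a source of IL-6 and oncostatin M, and respond to IL-6 through Il6ra.

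The promoters of the ligands Il6 and Lif are shown because these were the genes of the family that were higher in anti-Act1. Each stretch covers 250 bases before to 50 bases after the RefSeq start site (GRCm38.p6), on the plus strand, chr5:30012864-30013163 for Il6 and chr11:4257318-4257617 for Lif. Capitals mark matches to the motifs searched on both strands, which were AP-1 (TGANTCA), kappaB (GGNNTTTCC), C/EBP (TTGNNCAA), CRE (GACGTCA), STAT (TTCNNNGAA) and the TATA box, searched for as TATAAA.
Il6: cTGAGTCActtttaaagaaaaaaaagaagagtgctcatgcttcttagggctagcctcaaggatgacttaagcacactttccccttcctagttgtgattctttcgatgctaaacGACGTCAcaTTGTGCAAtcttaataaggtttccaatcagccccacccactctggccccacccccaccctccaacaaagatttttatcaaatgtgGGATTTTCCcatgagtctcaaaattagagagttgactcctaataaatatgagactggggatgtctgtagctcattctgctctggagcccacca
Lif: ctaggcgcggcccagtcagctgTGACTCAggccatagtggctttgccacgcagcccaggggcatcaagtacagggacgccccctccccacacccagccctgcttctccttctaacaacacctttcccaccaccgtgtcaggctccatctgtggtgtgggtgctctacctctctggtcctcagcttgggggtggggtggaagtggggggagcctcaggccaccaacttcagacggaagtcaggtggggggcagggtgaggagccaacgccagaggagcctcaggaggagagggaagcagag
In the Il6 promoter an AP-1 match lay at -249 to -243 from the start site, a CRE match at -137 to -131, a C/EBP match at -128 to -121 and a kappaB match at -43 to -35. The Lif promoter held 1 match, to AP-1, at -228 to -222. Of 32851 RefSeq promoters of 300 bases, 7.81% held the AP-1 letters, 5.82% kappaB, 6.40% C/EBP, 3.21% CRE, 8.30% STAT and 13.6% TATA. The table holds promoters of 7 of the genes (Osm has no entry, and Lifr and Il11ra1 have 2 each). The STAT and TATA letters were in none of them, and the only other match was to AP-1, at 4 to 10 in Osmr. GC content was 44.0% in the Il6 stretch and 63.7% in the Lif stretch. These are matches of letters and say nothing of binding in these macrophages.

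Levels can be set beside each other across genes only per length, for which the deposited FPKM values (fragments scaled to gene length and library size) were used. Osm stood highest, with 38.5 ± 1.22 FPKM in WT and 36.9 ± 1.43 FPKM in anti-Act1 (mean ± SD, n = 2 per group, as for every mean below). Il11ra1 came next at 20.9 ± 1.60 and 21.0 ± 0.716 FPKM. Il6ra followed with 19.1 ± 0.292 FPKM in WT and 16.4 ± 0.160 in anti-Act1, and Il6st with 18.2 ± 0.337 and 17.0 ± 0.767. The order of these last genes was not the same in both groups, since Il6ra lay above Il6st in both WT libraries and the range of Il6st overlapped that of Il6ra in anti-Act1. In this set of 4 well-expressed genes, each had a higher FPKM than at least 81.8% of the genes in the table.

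The other 4 genes were listed below 1 FPKM in every library. Lifr averaged 0.436 ± 0.0831 FPKM in WT and 0.243 ± 0.0813 in anti-Act1, and Lif 0.134 ± 0.0169 and 0.595 ± 0.0320. Thus Lifr lay above its ligand in both WT libraries and below it in both anti-Act1 libraries. Il6 was listed at 0.0560 and 0.0240 FPKM in WT and at 0.247 and 0.292 FPKM in anti-Act1. Osmr was lowest and listed at 0 in 1 WT library.

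**Figure D1:**
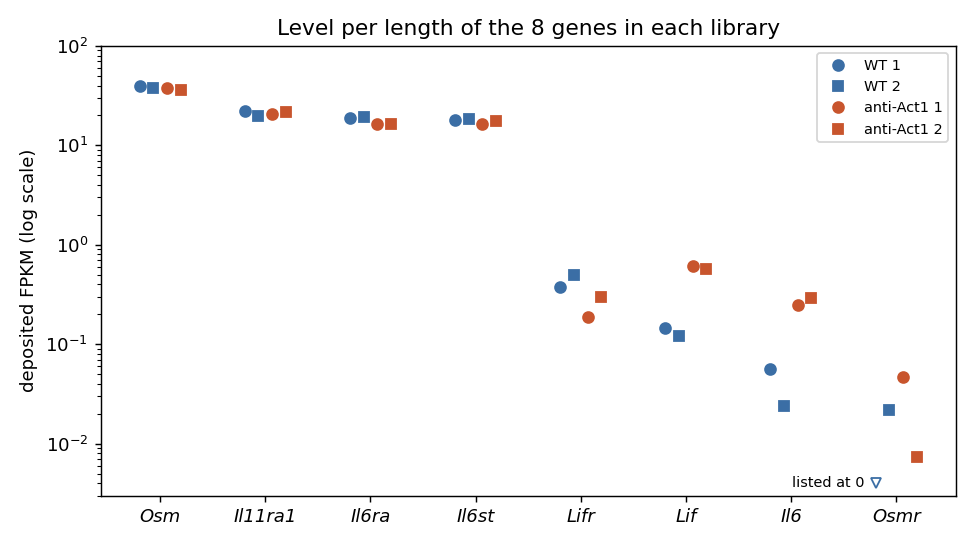
Deposited FPKM on a log axis of the 8 genes in each library (circles, replicate 1; squares, replicate 2). Osm, Il11ra1, Il6ra and Il6st lie above 16 FPKM in all libraries, whereas Lifr, Lif, Il6 and Osmr lie below 1 FPKM, and the open triangle marks Osmr listed at 0 in WT replicate 1.

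Among the ligands, Lif was the clearest difference. Its counts were 43 and 42 in the WT libraries and 176 and 146 in those labelled anti-Act1. The groups did not overlap. Scaled to library size, this was 0.609 ± 0.0793 CPM in WT and 2.76 ± 0.125 CPM in anti-Act1, 4.53-fold higher. The log2 fold change was 2.18 (standard error 0.26, 95% interval 1.65 to 2.72, edgeR adjusted p = 7.26e-09). In bulk RNA, more cells that make a transcript and more transcript per cell cannot be told apart. Lif is also made by fibroblasts and epithelial cells, so markers of both were read beside it. None of 3 tested fibroblast markers was called. The 10 listed ones summed to 1.94 and 2.08 CPM in WT and 2.72 and 2.34 CPM in anti-Act1, with Lum at 0. Pdgfrb was the largest part of each sum, at 1.22 and 1.15 CPM in WT and 2.02 and 1.41 CPM in anti-Act1. Its log2 fold change was 0.54 (edgeR adjusted p = 0.156), and those of the other 2 tested lay below 0. None of 3 tested markers of epithelial tumour cells was called either. Their list summed to 2.09 and 1.62 CPM in WT and 1.80 and 1.30 CPM in anti-Act1, with Krt8, Krt18, Cldn3 and Cldn4 at 0. Lgals4 was the largest part of each sum, at 1.19 and 1.08 CPM in WT and 0.923 and 0.971 CPM in anti-Act1. Whether other cells made part of the Lif transcript was not tested.

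Il6, the cytokine that names the family, was a transcript of few reads in all libraries. It had 4 and 2 counts in WT and 17 and 18 counts in anti-Act1. The groups did not overlap, but the WT values lay near the limit of 3 counts. As a ratio of CPM over both libraries, 35 counts against 6 gave 7.04 (exact 95% counting interval 2.93 to 20.5, counting error only). The fitted log2 fold change was 2.76 (standard error 0.80, 95% interval 1.15 to 4.37, edgeR adjusted p = 0.00913). Il6 passed the filter on low counts only through the anti-Act1 libraries, where it was high, and without the filter the edgeR adjusted p was 0.04995. The call was lost when any of 3 libraries was left out. Leaving out WT replicate 2, anti-Act1 replicate 1 or anti-Act1 replicate 2 gave edgeR adjusted p = 0.147, 0.0686 and 0.124, with log2 fold changes of 2.25, 2.89 and 2.63. Without WT replicate 1 the log2 fold change was 3.42 (edgeR adjusted p = 0.0295) and the CPM ratio 11.4 (counting interval 2.93 to 97.96).

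Osm, the most abundant of these cytokines, had 74.5 and 70.9 CPM in WT and 72.5 and 69.4 CPM in anti-Act1. The groups overlapped. Its log2 fold change of -0.03 (SE 0.06) had a 95% interval of -0.15 to 0.08 and an edgeR adjusted p = 0.735. Osm and Lif are neighbours on chromosome 11, on the same strand with 16530 bases between them in GENCODE M21, and of this pair only Lif was called.

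Il6st, the gp130 chain shared by the whole family, had 97.5 and 99.6 CPM in WT and 90.1 and 97.2 CPM in anti-Act1. The groups did not overlap, but the gap between them was small against the spread within anti-Act1. The log2 fold change was -0.07 (standard error 0.06, 95% interval -0.19 to 0.04, edgeR adjusted p = 0.384).

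Il6ra, which binds IL-6, was slightly lower in anti-Act1. It stood at 63.3 and 64.4 CPM in WT and at 55.1 and 56.5 CPM in anti-Act1. Both anti-Act1 values lay below both WT values. The log2 fold change was -0.20 (standard error 0.06, 95% interval -0.31 to -0.08, edgeR adjusted p = 0.0120). The call was lost without anti-Act1 replicate 1 (-0.17, edgeR adjusted p = 0.172) and without anti-Act1 replicate 2 (-0.21, edgeR adjusted p = 0.0703). In GENCODE M21, 242 exon bases of Il6ra are shared with the antisense gene Gm42809, and reads of that stretch cannot be assigned without strand.

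Lifr, the receptor chain of Lif, was lower in anti-Act1 while its ligand was higher. Its counts were 103 and 158 in WT and 49 and 71 in anti-Act1. This gave 1.84 ± 0.345 CPM and 1.05 ± 0.358 CPM, 1.76-fold lower, with no overlap between groups. The log2 fold change was -0.83 (standard error 0.28, 95% interval -1.38 to -0.27, edgeR adjusted p = 0.0257). DESeq2 did not make this call (adjusted p = 0.136), and it was also lost without WT replicate 2 (-0.62, edgeR adjusted p = 0.284) and without anti-Act1 replicate 1 (-0.50, edgeR adjusted p = 0.337).

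Osmr, the receptor chain of oncostatin M, had 0 and 8 counts in WT and 14 and 2 counts in anti-Act1, so replicates of 1 group differed more than the groups. It did not pass the filter on low counts and has no test. The CPM ratio was 2.42, with an exact 95% counting interval of 0.975 to 6.52. Without anti-Act1 replicate 1 the ratio turned to 0.643, and without WT replicate 2 WT had 0 counts and the interval had no upper end. Osmr and Lifr lie next to each other on chromosome 15, on opposite strands and 215644 bases apart. Thus the ligand with the highest level in these macrophages had the receptor chain with the lowest.

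Il11ra1, which binds IL-11, had 39.2 and 35.0 CPM in WT and 36.8 and 39.1 CPM in anti-Act1. The groups overlapped, and the log2 fold change was 0.03 (standard error 0.07, 95% interval -0.10 to 0.17, edgeR adjusted p = 0.785). Its level is uncertain, because 1654 of the 2009 bases of its transcript are 98.97% identical to Gm13305 and 1299 are 99.0% identical to Il11ra2. The count table lists Gm13305 at 0 and Il11ra2 at 9 counts over all libraries.

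**Figure D2:**
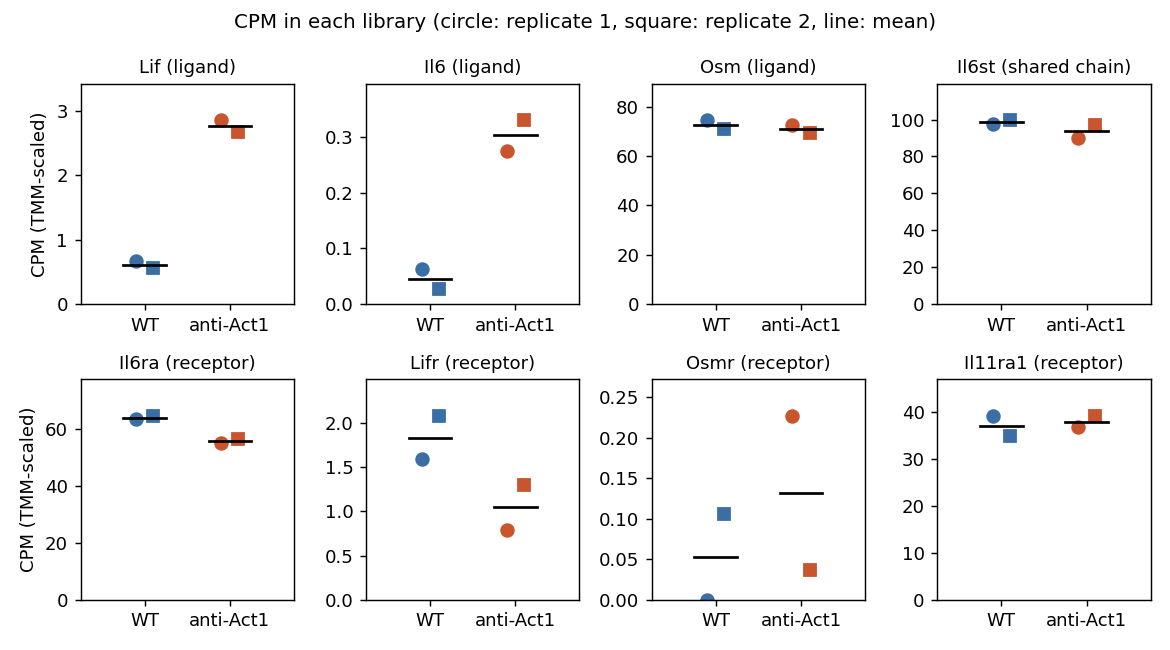
CPM of each gene in the 2 WT and 2 anti-Act1 libraries (points) with the group mean (line), on axes that start at 0. Lif and Il6 lie higher in both anti-Act1 libraries, Il6ra and Lifr lie lower, and the replicates of Osmr spread as widely as the groups.

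Of the 8 genes, 7 were tested, and 2 were called higher (Lif and Il6) and 2 lower (Il6ra and Lifr) at an edgeR adjusted p under 0.05. Il6 was among those tested only through its anti-Act1 counts, and with at least 10 counts required in every library 1 gene, Lif, was called higher. Of all 12494 genes tested, 10.9% were called higher and 9.76% lower. The groups did not overlap in CPM for 5 of the 8 genes, and 57.1% of all tested genes did not overlap. The median log2 fold change of the 7 tested genes was -0.03, beside -0.00457 for all tested genes, so the family did not move in 1 direction. The largest differences, of Lif, Il6 and Lifr, were in genes of few reads, and Lif alone among the 4 called genes kept its call in all 11 alternatives that gave a value.

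**Figure D3:**
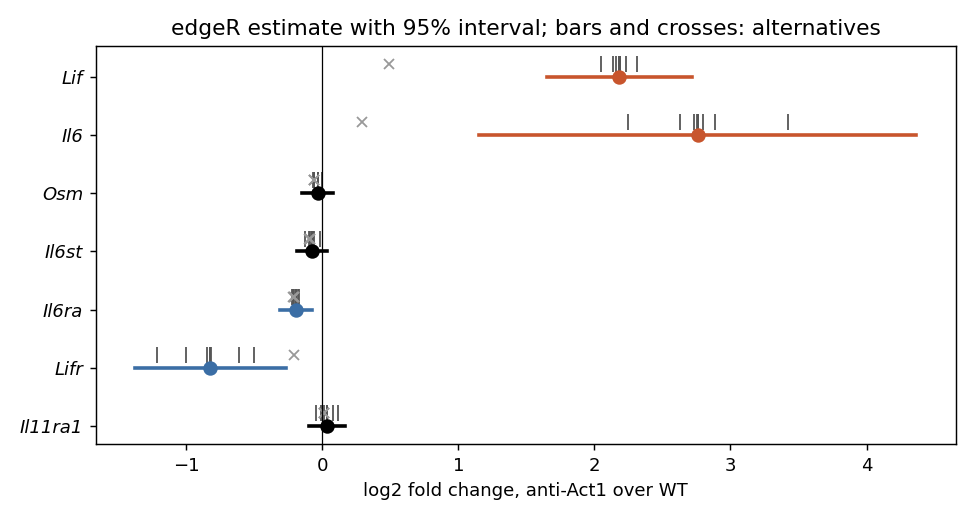
Log2 fold change of anti-Act1 over WT for the 7 tested genes, as the edgeR estimate (point) with its 95% interval (line; orange called higher, blue called lower, black not called). Bars above each line are count-based alternatives and crosses are limma on log2 FPKM with a pseudocount, which shrinks genes of low level, so that the cross of Lif lies at 0.49.

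Apart from Ebi3, the remaining ligands and receptors that use gp130 gave few reads. Of 11 listed, 5 were tested, and 2 were called higher and 0 lower, beside 10.9% and 9.76% of all tested genes. Clcf1, a cytokine of the ciliary neurotrophic factor group, had 1.46 and 2.04 CPM in WT and 2.62 and 2.66 CPM in anti-Act1, with a log2 fold change of 0.59 (standard error 0.22, adjusted p = 0.0471 by edgeR). DESeq2 called none of the list. Ebi3, a subunit of IL-27, had 59.7 and 61.5 CPM in WT and 66.0 and 70.9 CPM in anti-Act1, with a log2 fold change of 0.18 (standard error 0.06, adjusted p = 0.0261 by edgeR).

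No call was made for the other IL-27 subunit Il27 (log2 fold change -0.08, edgeR adjusted p = 0.852), its receptor chain Il27ra (0.17, adjusted p = 0.786) or the neurotrophic factor Cntf (-0.09, adjusted p = 0.931). The rest were not tested. Il11, the ligand of Il11ra1, had 5 counts in WT replicate 2 and 0 in the other libraries. Ctf1 (cardiotrophin) had 0 and 4 counts in WT and 9 and 6 in anti-Act1. Il31ra, the neighbour of Il6st, had 2 counts in 1 WT and 1 count in 1 anti-Act1 library. Cntfr, the neighbour of Il11ra1, and Il31 were at 0 in all libraries, which allows up to 3 counts in each.

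Downstream of gp130, the 18 listed genes of Janus kinase and STAT signalling were all tested. Of these, 3 were called higher and 2 lower, beside 10.9% and 9.76% of all tested genes. The median log2 fold change was -0.01. The kinases Jak1 (-0.01, edgeR adjusted p = 0.959) and Jak2 (0.16, edgeR adjusted p = 0.0521) were not called. Stat3 stood at 155 and 165 CPM in WT and at 147 and 149 CPM in anti-Act1. Its log2 fold change was -0.12 (standard error 0.05, adjusted p = 0.117 by edgeR), and counts of its transcript do not measure its phosphorylation.

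Both feedback inhibitors called in this list were higher. Socs3, which binds gp130 and blocks its kinases, had 5.50 and 4.63 CPM in WT and 7.92 and 7.20 CPM in anti-Act1, a log2 fold change of 0.58 (standard error 0.13, adjusted p = 0.000827 by edgeR). Cish, an inhibitor of STAT5 signalling, rose from 3.98 and 4.11 CPM to 5.80 and 7.03 CPM, a log2 fold change of 0.66 (standard error 0.14, adjusted p = 0.000448 by edgeR). The STAT inhibitor Pias1 (-0.25, edgeR adjusted p = 0.000736) and the phosphatase Ptpn1 (-0.23, edgeR adjusted p = 0.000586) were lower.

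The 28 genes listed as STAT3 targets did not move together. Of 26 tested, 7 were called higher and 7 lower, beside 10.9% and 9.76% of all tested genes. The median log2 fold change was 0.05. The largest rises were those of Saa3, an acute-phase protein, of the adhesion molecule Icam1 and of the kinase Pim1. Saa3 had 95.9 and 86.8 CPM in WT and 213 and 202 CPM in anti-Act1 (log2 fold change 1.18, standard error 0.06, adjusted p = 1.82e-22 by edgeR). Icam1 was higher by 0.41 and Pim1 by 0.27 on the log2 scale (edgeR adjusted p = 5.76e-07 and 5.77e-05).

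The largest falls were those of the cyclin Ccnd1 and of the transcription factors Cebpb and Myc. Ccnd1 had 13.1 and 13.4 CPM in WT and 4.13 and 4.93 CPM in anti-Act1 (log2 fold change -1.56, standard error 0.12, adjusted p = 9.11e-15 by edgeR). Cebpb, whose product binds C/EBP sites, was at 351 and 212 CPM in WT and at 170 and 133 CPM in anti-Act1, so the WT replicates differed widely but stayed above anti-Act1 (log2 fold change -0.89, standard error 0.10, adjusted p = 1.09e-09 by edgeR). Myc was lower by a log2 fold change of -0.76 (standard error 0.18, adjusted p = 0.00161 by edgeR). Many of these genes also answer to other factors, so their counts do not measure STAT3 activity.

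IL-6 can also act through a soluble receptor, which proteases cut from the cell surface. Of 4 listed shedding genes, 2 were called higher and 0 lower, beside 10.9% and 9.76% of all tested genes. Adam17, the protease of induced Il6ra shedding, had 338 and 339 CPM in WT and 391 and 400 CPM in anti-Act1 (log2 fold change 0.22, standard error 0.05, adjusted p = 0.000650 by edgeR). Rhbdf2, which carries Adam17 to the cell surface, was higher by 0.18 on the log2 scale (standard error 0.06, adjusted p = 0.0265 by edgeR). Adam10, which also cuts Il6ra, was not called (-0.12, edgeR adjusted p = 0.111). Thus the receptor transcript Il6ra was lower and that of a protease that sheds it higher, each by less than 0.25 on the log2 scale.

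Il6 transcripts are short-lived, and RNA-binding proteins set how long they last. Of 9 genes listed for the control of Il6, all but Nfkbiz encode RNA-binding proteins. Of the 9, 2 were called higher (Zc3h12a and Nfkbiz) and 0 lower, beside 10.9% and 9.76% of all tested genes. The median log2 fold change was -0.06. Zc3h12a (regnase-1), which degrades Il6 RNA, had 36.5 and 35.8 CPM in WT and 49.5 and 49.4 CPM in anti-Act1 (log2 fold change 0.45, standard error 0.06, adjusted p = 1.52e-07 by edgeR). Nfkbiz, a nuclear partner of NF-kappaB that Il6 induction needs, rose by 0.50 (standard error 0.07, adjusted p = 5.25e-07 by edgeR). The groups did not overlap for either gene.

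**Figure D4:**
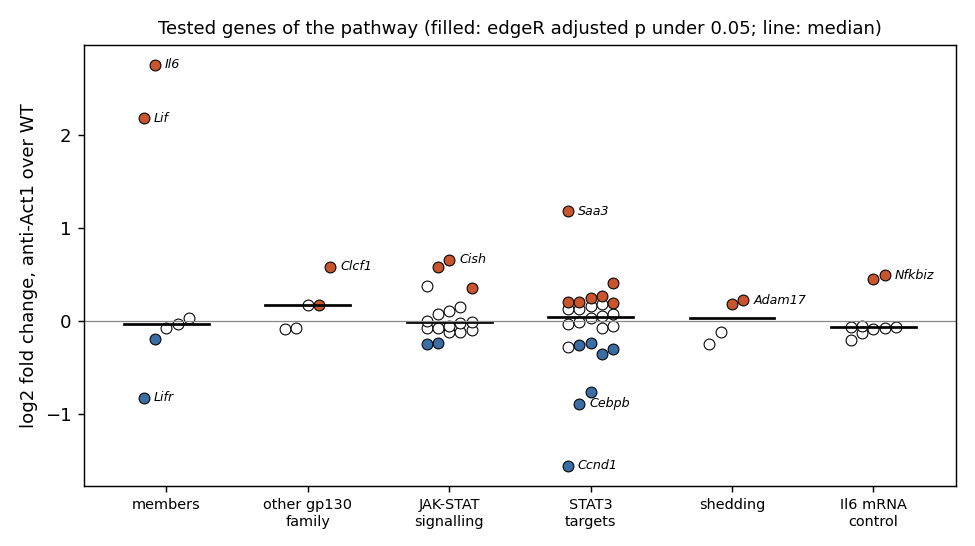
Log2 fold change of anti-Act1 over WT for each tested gene of the family and of 5 related lists (points; orange called higher, blue called lower, open not called) with the median of each list (line). Medians lie between -0.06 and 0.17, whereas Il6, Lif and Saa3 lie above 1 and Ccnd1 below -1.

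For each called gene of at least 1 CPM on average, the genes with the closest pattern over the 4 libraries were sought, as the smallest root mean square distance between centred log2 CPM among 12493 genes. Those closest to Lif were Inhba, a subunit of activin, at a distance of 0.0420 and with a log2 fold change of 2.14, and Acacb, an acetyl-CoA carboxylase, at 0.111 and 2.04. Closest to Il6ra were the kinase Ptk2b (distance 0.00291, log2 fold change -0.19) and Polr1a, a subunit of RNA polymerase I (0.00502 and -0.20). Closest to Lifr were a gene whose name a spreadsheet had turned into the date 3-Mar (0.10 and -0.64) and C1qtnf1 (0.110 and -0.95). This likeness describes these 4 libraries alone.

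Of the other cell types that could be present, the neutrophil list alone had called genes. Of 8 tested neutrophil markers, 1 was called higher (S100a8) and 4 lower (S100a9, Ngp, Retnlg and Ltf), beside 10.9% and 9.76% of all tested genes. The median log2 fold change of the 8 markers was -1.21. Their summed level was 527 and 541 CPM in WT and 549 and 532 CPM in anti-Act1, nearly all of it Mmp8 (519 to 541 CPM). The 4 that were lower are granule and calcium-binding proteins of neutrophils, and each stood below 2 CPM in every library. Ngp had 43 and 47 counts in WT and 11 and 5 in anti-Act1, and Retnlg 22 and 19 against 2 and 0. Both passed the filter on low counts only through the WT libraries, where they were high. Their calls and the median of -1.21 that includes them carry this limit. Ly6g, which defines mouse neutrophils, was at 0 in all libraries but WT replicate 1. Neutrophils also carry Il6ra. Of the macrophage markers, Cd14 was called higher and Itgam, Mertk and C1qa lower. None of the tested markers of T cells, B cells, dendritic cells, endothelial cells or mast cells was called. The part of these markers in the differences above was not tested.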

How the data were processed

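RNA from 4 libraries of cocultured bone-marrow-derived macrophages (2 WT, 2 anti-Act1) was sequenced by the authors. Reads were aligned with TopHat after adapter and quality filtering. The submitters' processing notes name Bowtie 0.12.2, HTSeq 0.6.1 and the builds mm8 and mm10 without a role, and use of strand is not given in the sources used here. The authors deposited whole read counts per gene, without normalization, and deposited FPKM values, which equal those counts scaled by gene length and library total. The study describes 2 biological replicates per condition.

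Counts were compared with edgeR 4.0.16 (R 4.3.3) after TMM normalization and filtering with filterByExpr. The model held the condition alone and was tested by two-sided quasi-likelihood, with Benjamini-Hochberg adjustment over 12494 of 21878 genes. A gene was called at an adjusted p under 0.05. CPM are counts scaled by TMM library sizes. Total counts were 55435063 to 75062945 per library. Members under 10 counts in a library were given the ratio of CPM with an exact 95% interval (conditional binomial, scipy 1.17.1), which covers counting error only. An exact permutation test of 2 against 2 libraries cannot go below p = 0.333 and was not used.

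Alternatives were DESeq2 1.42.0, edgeR with its size factors or with library totals alone, edgeR unfiltered or with a minimum of 10 counts per library, a replicate block, limma 3.58.1 on log2 of FPKM plus 1 or 0.1 (and plus 1 unfiltered), and the omission of each library. The test was checked on simulated counts, with the same spread set for all genes. Changes were placed only in genes of more reads than Il6 or Osmr had, so the check does not cover these genes. Promoters were taken from RefSeq (GRCm38.p6), neighbours and overlaps from GENCODE M21, and similar transcripts with blastn 2.17.0.

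The members and lists were chosen with earlier results of these data known. The genes named are all members, all other gp130 family genes, the called genes of each other list with the 3 largest rises and falls, Stat3, Socs3, Jak1, Jak2, Adam10, Adam17, Traf3ip2, neighbours within the family, and the 2 genes closest in pattern to each called member of at least 1 CPM. Not every gene under this rule is named in the text. Marker genes named beside these were chosen after their values were seen. The authors' own comparison columns were not used.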

Additional observations from a re-analysis of the deposited data

How the results depend on the processing

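Of 273 values recomputed under 13 alternatives for 23 results, 216 were counted as kept. For log2 fold changes this meant the same direction and side of the threshold, or direction alone where no adjusted p was given. Counts of genes had to stay within 1.5 times. Ratios of CPM had to keep their direction and lie inside the main counting interval. Lif kept its call in all 11 alternatives that gave a value (adjusted p 2.19e-16 to 0.00547), and its log2 fold change ranged from 0.49 with limma on FPKM plus 1 to 2.32. Il6ra kept its call in 11 of 13 and Lifr in 7 of 11. Il6 lost its call in 3 of 10, each without 1 library, and DESeq2 gave it no adjusted p. Osm and Il6st were called in none of 13.

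The count of members called was 1 higher and 1 lower with DESeq2, 1 higher with at least 10 counts in every library, 0 higher and 1 lower with limma on FPKM plus 1 or plus 0.1, and 1 lower with limma without a filter. Fewer members were tested where a filter removed Il6, Lif or Lifr. Genes called were 1105 higher and 1411 lower without composition normalization, and 913 and 1057 with limma on FPKM plus 1, against 1366 and 1220. Genes called higher fell to 908, with 1053 lower, with limma on FPKM plus 0.1 and to 582, with 509 against 1220 lower, with limma without a filter. Of the other gp130 family genes, 0 were called higher with DESeq2, without composition normalization and with each limma setting, and 1 of the shedding genes was called higher under the same settings. Of the Il6 mRNA control genes, 1 was called lower with DESeq2 and with the filtered limma settings, and 2 without composition normalization. With limma without a filter, JAK-STAT genes called were 1 higher and 1 lower and STAT3 targets called higher 4. The cause was not tested.

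Leaving out each library gave 930 to 1335 genes called higher, 741 to 1208 lower, 1 to 2 members higher and 0 to 2 lower, 0 to 2 other gp130 family genes higher, 3 to 4 JAK-STAT genes higher and 2 to 4 lower, 6 to 7 STAT3 targets higher and 5 to 7 lower, 1 to 2 shedding genes higher and 0 to 1 lower, and 0 to 1 Il6 mRNA control genes lower. The log2 fold change of Il11ra1, not called, ranged from -0.047 (WT replicate 2 omitted) to 0.116 (WT replicate 1 omitted) and was -0.0088 without anti-Act1 replicate 2. The ratio of Osmr ranged from 0.643 without anti-Act1 replicate 1 to 3.98 without anti-Act1 replicate 2. With WT replicate 2 omitted, WT was at 0 and the ratio had no upper limit (counting interval from 2.14). The ratio of Il6 ranged from 4.86 to 11.4. Without 1 library the lone one of its group is assumed to vary like the other group.

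The replicate numbers are only shared numbers (r = -0.0328 across genes between same-numbered deviations). With the replicate number as a block, 1293 genes were called higher and 1113 lower, and 2 members each way. Depth limits Il6 and Osmr, which had at most 18 counts in a library.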
